A study of Homo sapiens with 6 samples.

Results

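The matrix metalloproteinases (MMPs) and the tissue inhibitors of metalloproteinases (TIMPs) were examined in U87 cells, an established human glioma line, after knockdown of PCGF1, a Polycomb group RING finger protein of the chromatin complex PRC1.1. The family is represented by 10 genes of the 18132 measured, namely the interstitial collagenase MMP1, the stromelysins MMP3 and MMP10, the gelatinases MMP2 and MMP9, the membrane-type enzymes MMP14 and MMP16, and the inhibitors TIMP1, TIMP2 and TIMP3. They were read by 27 of the 44988 probe sets with exactly 1 gene symbol, and all 10 genes had at least 1. The genes were chosen by family and from earlier results of the same knockdown against control comparison. Differences between the groups are therefore given for these 10 genes as a description, and no claim rests on how many of them moved.

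The 6 Affymetrix arrays carried total RNA from 3 samples of cells given PCGF1-shRNA, a short hairpin RNA delivered by lentivirus, and from 3 samples of cells given the NC lentivirus. All were U87 cells grown in DMEM with fetal bovine serum. The labels call the samples of a group biological replicates without saying that they came from separate cultures, so the p-values reflect only how far these samples differ from each other, which may be technical. They do not say how many hairpins were used. Every knockdown sample name carries T0 and every control sample name T1, so what these tags mean and the knockdown cannot be told apart. Each value is a log2 signal minus the 6-array median of its probe set. Such values compare arrays and carry no information on expression level. Where the signal of 1 gene is subtracted from that of another, only the shift between arrays is read, not a ratio of transcripts.

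MMPs are zinc endopeptidases that are made as inactive precursors and cut collagens, other matrix proteins and many secreted signals. Stromelysins and plasmin can activate the precursor of MMP1, while MMP14 on the cell surface activates the precursor of MMP2 with TIMP2 as a bridge between them. TIMPs bind the active site of the mature enzymes. In glioma, MMPs are studied mainly for their part in the invasion of brain tissue, and transcription of MMP1, MMP3 and MMP10 is classically induced by interleukin-1, growth factors and the AP-1 factors.

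RefSeq promoters were read for 4 of the 10 members, MMP10, MMP14, TIMP1 and TIMP3. Each had a window from 250 bases before to 50 bases after the start of the gene in GRCh38.p14. MMP1, MMP2, MMP3, MMP9 and TIMP2 had no entry, and the promoter of MMP16 is not reported here. MMP10, which was lower in the knockdown arrays, is shown beside MMP14, which was higher, and TIMP1, which did not pass the threshold. Capitals mark exact matches to 4 patterns, searched on both strands. The site of AP-1, the FOS and JUN factors, was searched as TGANTCA. The box bound by the general transcription machinery was searched as TATAAA. The PEA3 site of the ETS factors was searched as AGGAAG, and an NF-kB consensus was searched as well. No matches overlap in the windows shown. The windows lie at chr11:102780579-102780878 (minus strand), chr14:22836335-22836634 (plus strand) and chrX:47582186-47582485 (plus strand).
MMP10: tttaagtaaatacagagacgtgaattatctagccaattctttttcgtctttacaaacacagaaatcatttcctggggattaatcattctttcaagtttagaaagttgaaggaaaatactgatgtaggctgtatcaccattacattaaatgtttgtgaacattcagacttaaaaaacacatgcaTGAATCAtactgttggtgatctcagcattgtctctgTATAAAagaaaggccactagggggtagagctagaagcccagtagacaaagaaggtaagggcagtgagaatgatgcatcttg
MMP14: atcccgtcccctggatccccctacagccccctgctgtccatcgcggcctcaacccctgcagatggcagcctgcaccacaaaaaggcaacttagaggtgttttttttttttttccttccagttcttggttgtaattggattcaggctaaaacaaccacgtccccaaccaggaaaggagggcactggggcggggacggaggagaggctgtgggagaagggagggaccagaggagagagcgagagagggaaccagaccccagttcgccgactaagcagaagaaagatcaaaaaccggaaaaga
TIMP1: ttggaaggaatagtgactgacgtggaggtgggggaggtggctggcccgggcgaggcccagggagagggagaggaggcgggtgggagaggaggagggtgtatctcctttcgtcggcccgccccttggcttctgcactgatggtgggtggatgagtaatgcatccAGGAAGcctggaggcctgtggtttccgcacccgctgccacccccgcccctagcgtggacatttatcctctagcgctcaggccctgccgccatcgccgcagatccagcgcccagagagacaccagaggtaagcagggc

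The MMP10 window held 1 AP-1 match, TGAATCA, whose first base lies 67 bases before the start, and 1 TATA match 31 bases before it. Of all 35116 promoter windows of this length, 7.71% held the AP-1 pattern and 11.5% the TATA pattern. The TIMP1 window held 1 PEA3 match 87 bases before the start, a pattern found in 33.6% of all windows. The MMP14 and TIMP3 windows held none of the 4 patterns, and the NF-kB pattern, present in 0.558% of all windows, was in none of the 4 members' windows. The windows also differed in base composition. MMP10 had 2 CpG dinucleotides and 36.3% G and C, MMP14 had 10 and 55%, TIMP1 had 16 and 65%, and TIMP3 had 31 and 72.7%, against a median of 14 CpG over all windows. A match describes the letters of a window and does not show that a factor binds there. Near matches were not counted, such as TGAGTAA in the TIMP1 window, which differs from the AP-1 pattern in a single letter. A window without a match is therefore not shown to lack a site.

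The knocked-down gene was read by 1 probe set, whose signal in the knockdown arrays was 74.3% of that in the control arrays (95% interval of the log2 difference -0.56 to -0.30). With no signal level known, this ratio does not give how far the PCGF1 transcript itself was reduced. Across all genes, limma called 4.63% lower and 6.36% higher in the knockdown arrays at an adjusted p under 0.05, and the 2 groups of 3 arrays did not overlap for 32.7% of genes. The median log2 fold change of all genes was -0.01, and 90% of them lay between -0.19 and 0.21.

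Among the MMP and TIMP genes the collagenase and both stromelysins were lower after PCGF1 knockdown, whereas MMP2, MMP14 and TIMP2 were higher. MMP9, MMP16 and TIMP1 did not pass the threshold, and TIMP3 was lower by a call that most other settings did not keep. In all, 4 of the 10 genes were called lower and 3 higher, and the groups did not overlap for these 7 (4.63%, 6.36% and 32.7% of all genes, respectively). Because the genes were chosen with this comparison known, these counts are not read against the shares of all genes. The median log2 fold change of the 10 genes was -0.03. In RNA from whole cultures, fewer cells making a transcript and less transcript per cell cannot be told apart.

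**Figure D1:**
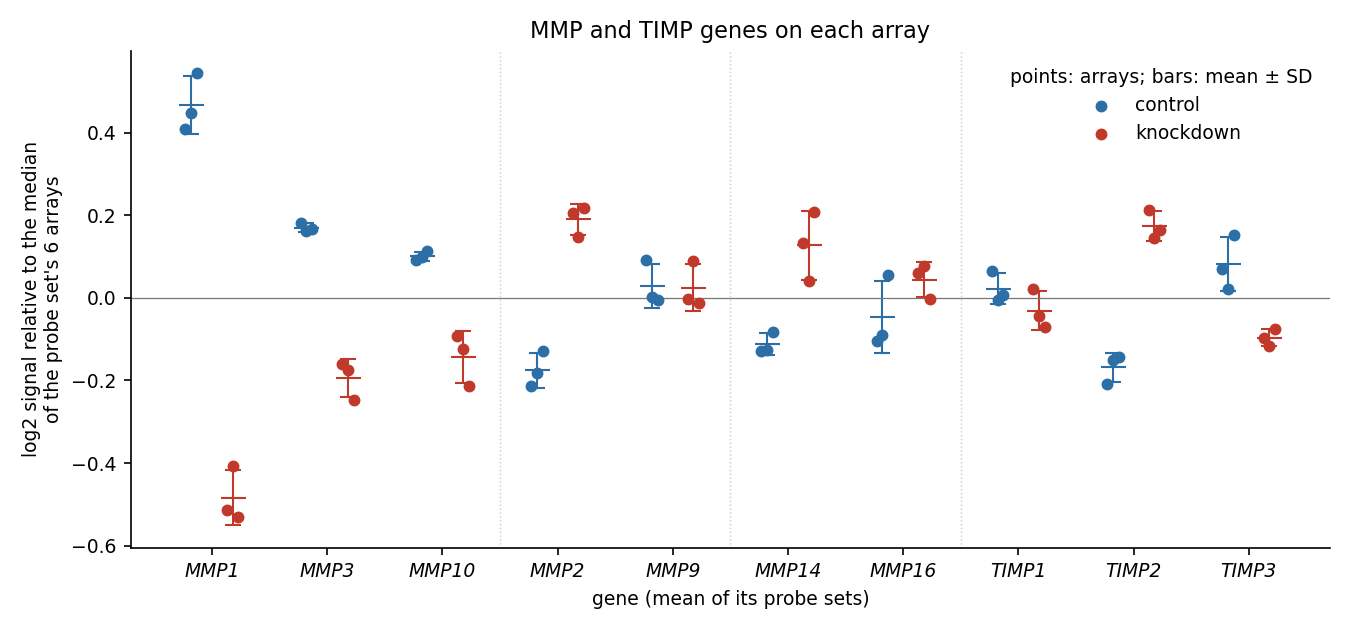
Log2 signal of each MMP and TIMP gene on every array, relative to the median of the 6 arrays (y axis), by gene (x axis). Points are arrays, horizontal marks are group means and bars are SD (n = 3 per group). MMP1 has the widest gap between groups, and control and knockdown arrays overlap for MMP9, MMP16 and TIMP1.

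MMP1, which cuts the triple helix of fibrillar collagens, had log2 signals of -0.51, -0.41 and -0.53 in knockdown replicates 1 to 3 and of 0.41, 0.45 and 0.54 in the control replicates. Every knockdown array was below every control array, and the gap between the nearest arrays of the groups was 0.82. Knockdown arrays averaged -0.48 ± 0.07 and control arrays 0.47 ± 0.07 (SD, n = 3 each). MMP1 thus had a log2 fold change of -0.95 ± 0.05 (SE from limma; 95% interval -1.07 to -0.83), which is 1.93-fold lower and places MMP1 at number 6 of the 18132 genes when these are ordered from the lowest fold change.

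MMP3, or stromelysin-1, cuts proteoglycans, fibronectin and other matrix proteins and activates other precursor MMPs. Its signals were -0.16, -0.17 and -0.25 in the knockdown arrays and 0.18, 0.16 and 0.17 in the control arrays, again without overlap. The control arrays lay close together (SD 0.01) and the knockdown arrays spread more (SD 0.05). The log2 fold change was -0.36 ± 0.04 (SE; 95% interval -0.46 to -0.27), or 77.7% of the control level.

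MMP10, or stromelysin-2, is the closest relative of MMP3 in this set and has similar substrates. Its signals were -0.09, -0.12 and -0.21 in the knockdown arrays and 0.09, 0.10 and 0.11 in the control arrays. The groups did not overlap, but the nearest arrays were only 0.18 apart. The log2 fold change was -0.24 ± 0.04 (SE; 95% interval -0.34 to -0.14), or 84.5% of the control level, and its rank was 435 from the lowest against 134 for MMP3. The 3 measured log2 fold changes thus differed in size. They come from different probe sets of unknown signal level, and whether the transcripts changed to different degrees was not tested. The signal of MMP1 minus that of MMP3 was -0.35, -0.23 and -0.28 in the knockdown arrays and 0.23, 0.29 and 0.38 in the control arrays. This difference was thus lower in every knockdown array than in any control array. MMP3 minus MMP10 ranged from -0.07 to -0.03 in the knockdown arrays and from 0.05 to 0.09 in the control arrays, a smaller shift in the same sense.

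The gelatinases, which cut denatured collagen and the type IV collagen of basement membranes, did not move alike. MMP2 had signals of 0.21, 0.15 and 0.22 in the knockdown arrays and of -0.21, -0.18 and -0.13 in the control arrays. All knockdown arrays were above all control arrays. The log2 fold change was 0.37 ± 0.04 (SE; 95% interval 0.27 to 0.46), or 1.29-fold higher, nearly the same size as the difference in MMP3 but in the opposite direction. MMP9 had signals of -0.0029, 0.09 and -0.01 in the knockdown arrays and of 0.09, 0.0029 and -0.0061 in the control arrays. The groups covered the same range, and the 95% interval of the log2 fold change was -0.11 to 0.10, which does not reach the value of MMP2. MMP9 rests on 1 probe set of unknown signal level. The interval therefore describes the measured signal and cannot show that its transcript was unchanged.

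MMP14, or MT1-MMP, is a collagenase anchored in the plasma membrane. Its signals were 0.13, 0.04 and 0.21 in the knockdown arrays and -0.13, -0.13 and -0.08 in the control arrays. The groups did not overlap, and knockdown replicate 2 was the nearest to the control arrays. The log2 fold change was 0.24 ± 0.05 (SE; 95% interval 0.12 to 0.35), or 1.18-fold higher. The call was lost without any 1 array other than knockdown replicate 2 (limma adjusted p 0.0545 to 0.0709 in these 5 fits) and with the most variable probe set alone (adjusted p = 0.133). MMP16, or MT3-MMP, another membrane-anchored enzyme, had signals of 0.06, 0.08 and -0.0033 in the knockdown arrays and of -0.11, -0.09 and 0.05 in the control arrays. These overlapped, and the log2 fold change of 0.09 had a 95% interval of -0.03 to 0.21.

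Of the 3 inhibitors, TIMP2 was higher, TIMP3 was lower and TIMP1 did not pass, and the inhibitors were not tested against each other. TIMP2, which inhibits MMPs and also links the MMP2 precursor to MMP14, had signals of 0.21, 0.14 and 0.16 in the knockdown arrays and of -0.21, -0.15 and -0.14 in the control arrays. The groups did not overlap, and the log2 fold change was 0.34 ± 0.04 (SE; 95% interval 0.25 to 0.43), or 1.27-fold higher. TIMP1, a soluble inhibitor of most MMPs, had signals of 0.02, -0.04 and -0.07 against 0.07, -0.0055 and 0.0072, with overlap. Its log2 fold change of -0.05 had a 95% interval of -0.15 to 0.05.

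TIMP3, which is held in the matrix and also inhibits ADAM proteases, had signals of -0.10, -0.12 and -0.08 in the knockdown arrays and of 0.07, 0.02 and 0.15 in the control arrays. The groups did not overlap, but the nearest arrays were 0.10 apart. The log2 fold change was -0.18 ± 0.04 (SE; 95% interval -0.28 to -0.07), or 88.4% of the control level. None of the 6 fits that dropped an array kept the call (limma adjusted p 0.0550 to 0.124). It was also lost with its most variable probe set (adjusted p = 0.0514) and when _s_at and _x_at sets were dropped (adjusted p = 0.0768).

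Set against each other within arrays, the difference between the MMP2 and TIMP2 signals did not separate the groups. MMP2 minus TIMP2 was -0.0068, 0.0034 and 0.05 in the knockdown arrays and -0.0050, -0.03 and 0.01 in the control arrays, and the groups overlapped. MMP14 minus TIMP2 was -0.08, -0.10 and 0.04 against 0.08, 0.03 and 0.06, also with overlap. For MMP1 and TIMP1 the groups did not overlap. MMP1 minus TIMP1 was -0.53, -0.36 and -0.46 in the knockdown arrays and 0.34, 0.45 and 0.54 in the control arrays. This difference was lower by 0.90 on the log2 scale in the knockdown arrays. MMP1 minus TIMP3 was -0.42, -0.29 and -0.46 against 0.34, 0.43 and 0.39, also without overlap and with a smaller shift of -0.77. Because each signal is centred, these values show how a difference shifted between arrays, not the ratio of the transcripts, and they do not measure enzyme activity.

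Knockdown replicate 2 lay nearest to the control arrays for MMP1, MMP2, MMP14 and TIMP2, 4 of the 7 called members. The same array was the nearest for 44.5% of the 1994 genes called in either direction, against 27.9% for replicate 1 and 27.5% for replicate 3. PCGF1 itself was at -0.13 in that array, compared with -0.27 and -0.19 in the other knockdown arrays.

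The probe sets of most members agreed in sign. For MMP1 both probe sets were lower, at -1.03 and -0.87. The 4 probe sets of MMP2 were all higher, between 0.30 and 0.44, and both of TIMP2 were higher, at 0.24 and 0.44. Fitted one by one among all 44988 probe sets, of which 7.42% were called, 12 of the members' 27 were called, 5 lower and 7 higher. All 4 probe sets of MMP14 were higher, between 0.13 and 0.30, but only 1 was called alone. All 3 of TIMP3 were lower, between -0.29 and -0.11, with 1 called. The 6 probe sets of MMP16 disagreed in sign, 4 being higher and 2 lower, between -0.06 and 0.23. MMP3, MMP10 and MMP9 rest on 1 probe set each, and that of MMP3 is an _s_at set, a type that can match more than 1 transcript.

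**Figure D2:**
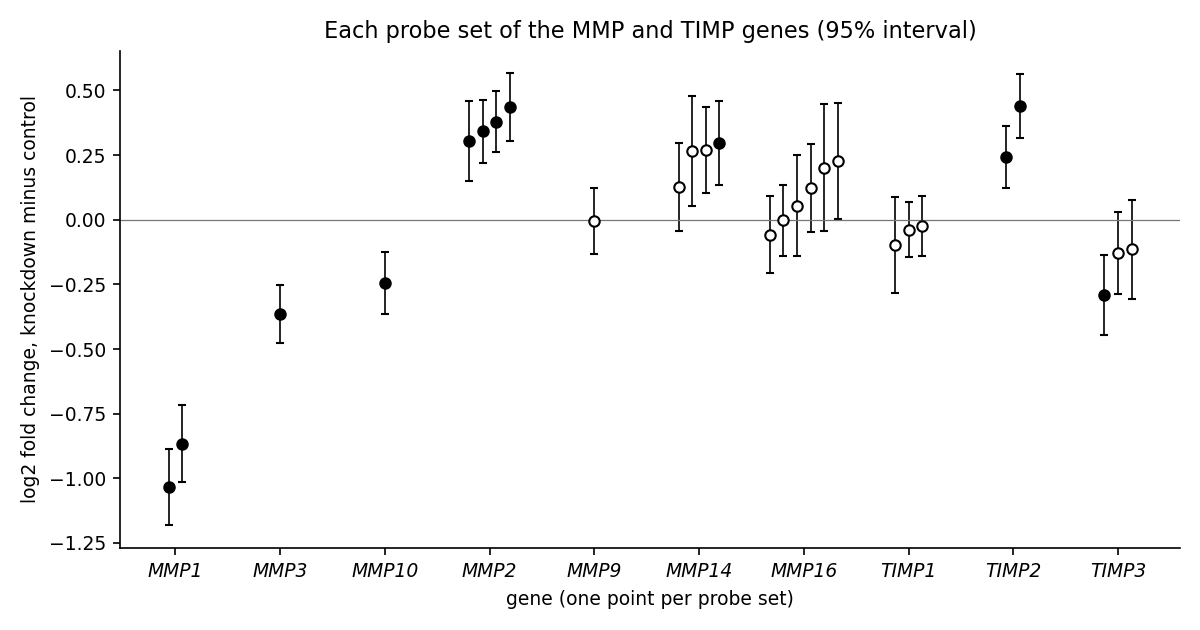
Log2 fold change, knockdown minus control (y axis), of each of the 27 probe sets by gene (x axis), with 95% intervals. Filled points were called at an adjusted p under 0.05 in the fit over all probe sets. MMP1 and MMP2 have every probe set called on the same side, while those of MMP16 lie on both sides of 0.

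MMP10, MMP1 and MMP3 are direct neighbours in a row of 9 MMP genes on chromosome 11. In gene order the row runs MMP7, MMP20, MMP27, MMP8, MMP10, MMP1, MMP3, MMP12 and MMP13. The 3 called genes are the adjacent ones in its middle, and the other 6 did not pass the threshold. MMP8, the neutrophil collagenase next to MMP10, was at -0.08 (95% interval -0.19 to 0.03), and MMP12, the macrophage elastase next to MMP3, was at -0.13 (-0.26 to 0.01). MMP13, collagenase-3, was at -0.09 with a 95% interval that ended just below 0 and groups that did not overlap, but it did not pass after adjustment (limma adjusted p = 0.188). MMP7, MMP20 and MMP27 lay between -0.03 and 0.03. The intervals of MMP8 and MMP12 lie mostly below 0 but include it. Because the values are centred, it is not known whether these 6 genes were expressed in U87 cells at all.

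Beyond the row, the 10 nearest measured protein-coding genes on each side were examined. Of these 20 genes 2 were called lower and 1 higher, beside 4.63% and 6.36% of all genes, with a median log2 fold change of -0.02. TMEM123, the measured gene next to MMP7, fell by 0.30 (SE 0.04, limma adjusted p = 0.00476), and all 3 of its probe sets were lower, although the most variable of them alone did not pass (adjusted p = 0.0890). CASP4, an inflammatory caspase on the other side, fell by 0.20 (SE 0.04, adjusted p = 0.0113), although 1 of its 7 probe sets was higher at 0.03 and the call was lost when _s_at and _x_at sets were dropped (adjusted p = 0.0826). CEP126, a centrosomal protein gene, rose by 0.30 (SE 0.07, adjusted p = 0.0279), a call lost in 4 of the 6 fits that left out 1 array (adjusted p up to 0.0928). DCUN1D5, the first measured gene after MMP13, was at -0.06, and BIRC2 and YAP1, which lie before TMEM123, were at 0.07 and -0.10. None of the latter passed the threshold.

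**Figure D3:**
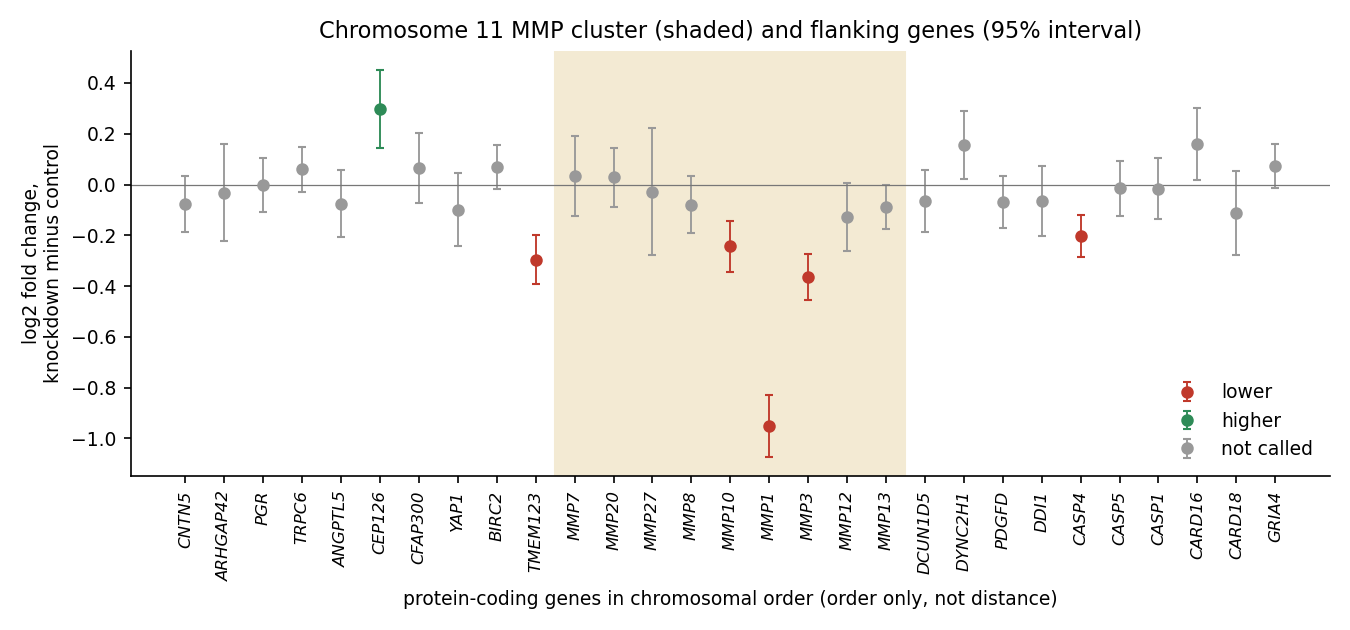
Log2 fold change, knockdown minus control (y axis), with 95% intervals, for the row of 9 MMP genes on chromosome 11 (shaded) and 10 measured protein-coding genes on each side, in chromosomal order (x axis, order only). Colours give the call; MMP10, MMP1 and MMP3 are the called genes inside the row, with MMP1 at -0.95.

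Of the 16 other family genes measured, MMPs and TIMP4, 0 were called lower and 0 higher by limma (3 and 2 at an unadjusted p under 0.05), with log2 fold changes between -0.13 and 0.18 and a median of -0.02. Of all genes 4.63% were called lower and 6.36% higher. The 16 are the family genes left after the members were chosen with this comparison known. Their count of 0 is partly set by that choice and is not read against these shares. MMP19, a widely expressed soluble MMP, was the highest at 0.18 (adjusted p = 0.0542). All 5 of its probe sets were higher, and it passed with the most variable of them (0.39, adjusted p = 0.0251) and when _s_at and _x_at sets were dropped (0.21, adjusted p = 0.0460). TIMP4 was at 0.17 (adjusted p = 0.126), and the membrane-type genes MMP15 and MMP17 were at -0.13 and -0.06.

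Genes that activate, inhibit or bind MMPs were examined as a list, of which 16 of 17 were measured. This list and those that follow were chosen with earlier results of these data known. Their counts, given beside the shares of all genes, are therefore a description only. The list had 1 gene called lower and 5 higher (4.63% and 6.36% of all genes), with a median of 0.16 against -0.01 for all genes. The plasminogen activators rose, PLAT by 0.46 ± 0.04 (SE, limma adjusted p = 0.000624) and PLAU by 0.39 ± 0.05 (adjusted p = 0.00302). These enzymes make plasmin, which can activate several precursor MMPs. THBS2, a matricellular protein that promotes the uptake of MMP2, rose by 0.39 ± 0.05 (adjusted p = 0.00277). RECK, a membrane-anchored MMP inhibitor, rose by 0.26 ± 0.04 (adjusted p = 0.0116), and SERPINE2, an inhibitor of plasminogen activators, rose by 0.20 (adjusted p = 0.0157), a call lost in 3 of 6 fits without 1 array (adjusted p up to 0.0545). TFPI2, a secreted inhibitor of plasmin and other serine proteases, fell by 0.78 ± 0.04 (adjusted p = 0.000149), and its 3 probe sets were at -1.01 to -0.62. All 3 are _s_at or _x_at sets, so TFPI2 had no value when these types were dropped. Its signals were -0.37, -0.42 and -0.39 in the knockdown arrays and 0.39, 0.44 and 0.33 in the control arrays, without overlap. The other 10 genes, among them the proprotein convertase gene FURIN at 0.25 (adjusted p = 0.181) and BSG, the MMP inducer basigin, at 0.14 (adjusted p = 0.0515), did not pass.

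Transcription factors known to act on MMP promoters were called lower in 6 of 16 cases and higher in 1 (4.63% and 6.36% of all genes), with a median of -0.14. ETS2 fell by 0.43 ± 0.04 (SE, limma adjusted p = 0.000739), ETS1 by 0.29 ± 0.05 (adjusted p = 0.0144) and the AP-1 subunit gene JUN by 0.26 ± 0.04 (adjusted p = 0.0102). The call of ETS1 was lost in 2 of the 6 fits without 1 array (adjusted p up to 0.0543) and that of JUN when _s_at and _x_at sets were dropped (adjusted p = 0.0867). CEBPB, NFKB1 and ETV4 were the other genes called lower, at -0.23, -0.22 and -0.21. When each gene was read by its most variable probe set alone, 4 of the 16 were called lower, namely ETS1, ETS2, JUN and FOSL1, while CEBPB, NFKB1 and ETV4 did not pass (adjusted p 0.0542 to 0.106). Without 1 array, the call of ETV4 was lost in 5 of 6 fits (adjusted p up to 0.124) and that of CEBPB in 2 of 6 (adjusted p up to 0.0545). FOSL2, another AP-1 subunit gene, rose by 0.23 ± 0.05 (adjusted p = 0.0182), a call lost in 4 of the 6 fits without 1 array (adjusted p up to 0.0681). FOS, FOSB, FOSL1, JUNB and JUND did not pass, with log2 fold changes between -0.16 and -0.01. Of these, FOSL1 passed with its most variable probe set (-0.30, adjusted p = 0.0249) and FOS when _s_at and _x_at sets were dropped (-0.29, adjusted p = 0.0486). ETV1, RUNX2, ETV5 and RELA did not pass either, at 0.26, 0.07, 0.04 and -0.02. ETV1 was the highest gene of the list, and all 8 of its probe sets were higher, but its groups overlapped (limma adjusted p = 0.199).

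Secreted ligands that can induce MMP1, MMP3 or MMP10 were called lower in 5 of 13 cases and higher in 1, beside 4.63% and 6.36% of all genes, with a median of -0.04. IL1B, interleukin-1 beta, fell by 1.48 ± 0.04 (SE, limma adjusted p = 2.49e-06). LIF, an interleukin-6 family cytokine, fell by 0.63 ± 0.05 (adjusted p = 0.000575), and EREG, epiregulin, a ligand of the EGF receptor, fell by 0.60 ± 0.06 (adjusted p = 0.00105). IL1A and IL6 were the other genes called lower, at -0.45 and -0.43, but the 2 probe sets of IL6 disagreed, at -0.99 and 0.14. EGF rose by 0.23 ± 0.04 (adjusted p = 0.0154), a call lost in 3 of 6 fits without 1 array (adjusted p up to 0.0583). TNF, OSM, FGF2, PDGFA, PDGFB, TGFA and HBEGF did not pass, between -0.15 and 0.09.

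Matrix proteins that MMPs cut were called higher in 5 of 16 cases and lower in 0 by limma (1 lower at an unadjusted p under 0.05), with a median of 0.03. Of all genes 6.36% were called higher and 4.63% lower. The fibrillar collagen genes COL5A1, COL1A1 and COL1A2 rose by 0.91 ± 0.05, 0.61 ± 0.06 and 0.60 ± 0.05 (SE, limma adjusted p 0.000149 to 0.00133). SPARC and FN1, a collagen-binding matrix protein and fibronectin, were the other called genes, at 0.56 and 0.34. COL1A1 and COL1A2 encode the chains of type I collagen, a main substrate of MMP1 and MMP14. COL4A1 and COL4A2, the basement membrane chains cut by the gelatinases, were at -0.12 and -0.09 and did not pass, nor did TNC, VCAN, ACAN, BCAN, NID1, HSPG2, DCN, COL2A1 and COL3A1, which lay between -0.07 and 0.18.

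**Figure D4:**
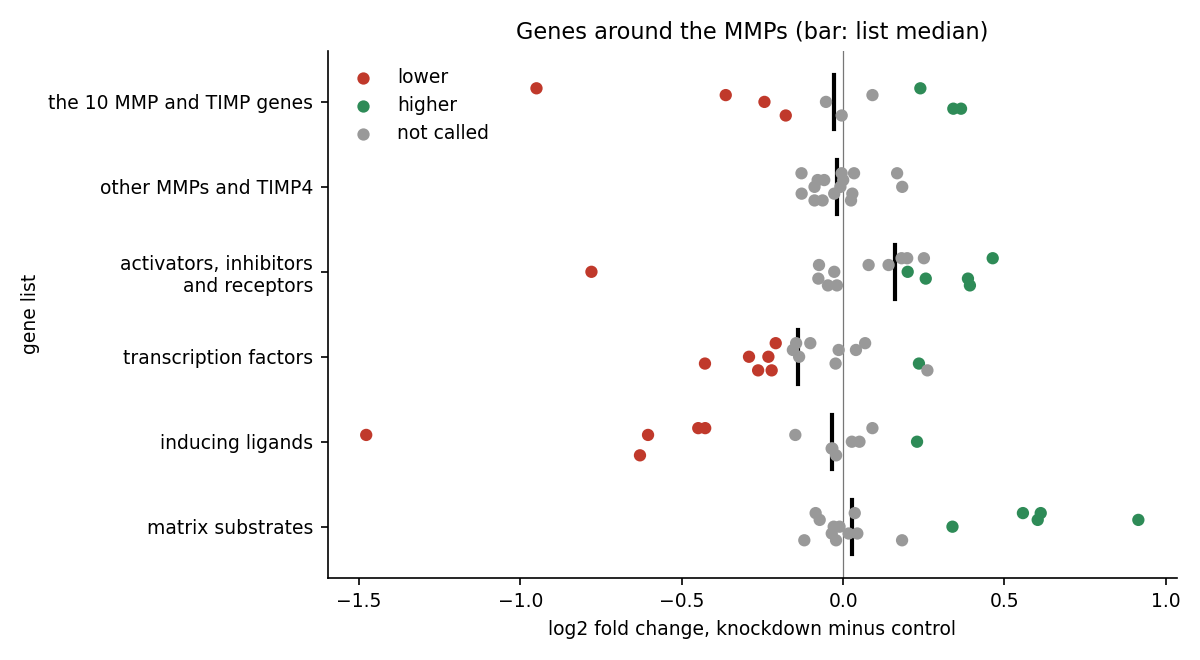
Log2 fold change, knockdown minus control (x axis), of every measured gene in the 10 MMP and TIMP genes and in 5 lists of related genes (y axis). Each point is a gene coloured by its call and each black bar is the list median. The other MMPs and TIMP4 have no called gene and lie between -0.13 and 0.18.

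Among listed markers of cell types, 0 of 9 glial, 0 of 6 leukocyte, 0 of 4 endothelial and 0 of 5 epithelial markers were called in either direction by limma (0, 0, 1 and 1 at an unadjusted p under 0.05). Of 8 fibroblast markers, 4 were called higher and 0 lower. With 6.36% of all genes called higher and 4.63% lower, a count of 0 in lists this short is near the background. The summed log2 signal of the 8 fibroblast markers was 0.91 to 1.26 in the knockdown arrays and -0.90 to -0.79 in the control arrays. COL1A1, COL1A2, LUM and PDGFRB were the called ones, at 0.61, 0.60, 0.45 and 0.28, PDGFRB by a call lost in 4 of 6 fits without 1 array. COL3A1, DCN, THY1 and FAP were not called and lay between -0.15 and 0.12, so the sum mainly reflects the called genes. COL1A1 and COL1A2 are also counted among the matrix proteins above. When _s_at and _x_at sets were dropped, the endothelial marker PECAM1 was also called, at -0.28 (limma adjusted p = 0.0431). Whether these marker differences have a part in the MMP and TIMP differences was not tested. Since the table holds no levels, it cannot show which of these markers U87 cells expressed.

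The mean profile of MMP10, MMP1 and MMP3 over the 6 arrays, each gene centred on its own mean, fell by 0.52 from control to knockdown. By root mean square difference over the 6 arrays, the gene most like it was FABP5, a fatty acid binding protein gene, at 0.0214. It was followed by LRP8 at 0.0351, a lipoprotein receptor gene, BZW2 at 0.0368, PAPPA at 0.0392 and KYNU at 0.0394. PAPPA encodes pappalysin-1, a metalloproteinase of another family, and KYNU the tryptophan pathway enzyme kynureninase. Their log2 fold changes lay between -0.52 and -0.48. This likeness was measured on the same arrays that define the profile and is a description only.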

How the data were processed

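Values came from the deposited table of 49395 probe sets on 6 arrays. They are log2 values that the authors made with RMA, per the submitters' processing notes, with no version given. The table does not state the log base, which is taken from RMA. A further step was found in the values and is described in no source used here: every probe set has a 6-array median of 0 (largest departure 4.85e-07), so no absolute signal is known and no filter on dim probe sets or intensity trend could be applied. Symbols came from the platform annotation, which can be old. A gene's value is the mean of its probe sets with exactly 1 symbol.

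The groups were contrasted in a model without covariates fitted by limma 3.58.1 (R 4.3.3, moderated two-sided tests) to all 18132 genes, with Benjamini-Hochberg adjustment over all of them, and "called" means an adjusted p under 0.05. The fit was also run on simulated data with independent noise for each gene and changes larger than those of most members. That run does not test the fit for smaller changes or for effects shared by samples, and its outcome is not reported here. The number of arrays limits the precision. Members and lists were chosen with earlier results of these data known. Named genes are every member, PCGF1, the other MMPs and TIMP4, up to 3 called genes in each direction of every other list, called or adjacent genes beside the MMP row, and the 5 genes with the most similar profile. Genes named beyond these were chosen after their values were seen. A few listed genes are not reported here. Promoters and gene order are from RefSeq, GRCh38.p14. Alternatives were quantile normalization, array medians centred, other choices of probe sets, weighted arrays, a block for the replicate number and leaving out each array.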

Additional observations from a re-analysis of the deposited data

How the results depend on the processing

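MMP1, MMP3, MMP10, MMP2 and TIMP2 kept their direction and call under every alternative in which they had a value. Their log2 fold changes ranged from -1.03 to -0.91, -0.38 to -0.34, -0.27 to -0.21, 0.35 to 0.44 and 0.24 to 0.44, and the highest adjusted p of MMP10 by limma was 0.0493. MMP9, MMP16 and TIMP1 passed under none, with adjusted p from 0.138 upward over the 3 genes. MMP14 lost its call in 6 of 12 alternatives and TIMP3 in 9 of 12, without a change of direction. Without the _s_at and _x_at probe sets 2 members were called lower, since the only probe set of MMP3 is an _s_at set and TIMP3 no longer passed. With the replicate number as a block (replicate block) 440 genes were called lower and 596 higher, against 840 and 1154, and 3 members were called in each direction (TIMP3 adjusted p = 0.0748). Under this block SERPINE2, EGF and ETV4 also lost their calls (adjusted p = 0.0587, 0.0561 and 0.0928). Same-numbered arrays did not deviate together (correlations of -0.04, -0.05 and 0.01), so the numbers were not taken to pair the samples. When each array was left out in turn, 395 to 590 genes were called lower and 553 to 812 higher, with fewer arrays in each fit. As single probe sets, 1345 were called lower and 1994 higher, of a larger number tested. The promoter matches were the same when only the last 150 of the 300 bases were searched. Filters on dim probe sets and an intensity trend were not run because the table holds no levels.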
